A study of Mus musculus with 8 samples.

Results

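The 10 genes described here encode the Kv1 and Kv4 voltage-gated potassium channels of neurons. They were taken by symbol from the 20802 genes of the deposited table, with no threshold on their values. Kcna1, Kcna2, Kcna4 and Kcna6 encode Kv1 alpha subunits, Kcnab1 and Kcnab2 encode the beta subunits that bind them, Kcnd2 and Kcnd3 encode Kv4 alpha subunits, and Kcnip3 and Dpp6 encode auxiliary subunits of Kv4. All 10 were in the table and all 10 had a mean of at least 10 normalized counts, as did 18865 genes in total. RNA-sequencing was performed on whole hippocampus from 8 male C57BL/6 mice, 4 Anesthesia and 4 Control. The Anesthesia mice received ketamine at 35 mg per kg once a day into the peritoneum for 5 days, PND16 to PND20, and the Control mice received normal saline on the same days, although the titles of these samples call them untreated. Tissue was collected 1 week after the last injection, and the age on the labels is P28 in both groups. Male mice of a single strain were sampled once, so neither females nor other ages are covered.

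Voltage-gated potassium channels open when the membrane depolarises, and the outward current returns the neuron toward rest. Kv1 channels are tetramers of alpha subunits with beta subunits attached on the cytoplasmic side. They gather at the axon initial segment, beside the nodes of Ranvier and at axon terminals, where they set the threshold for firing and limit transmitter release. Kv4 channels sit mainly on the cell body and dendrites, carry the rapidly inactivating A-type current, and restrain back-propagating action potentials in hippocampal pyramidal neurons. Their auxiliary subunits, the KChIPs and the dipeptidyl peptidase-like proteins, control how many channels reach the surface and how fast they open and inactivate.

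The segment that makes these alpha subunits potassium channels, the selectivity filter in the pore, is given here as coding sequence because all 6 alpha subunits carry it and because its place in the gene separates the Kv1 from the Kv4 members. Each window of 36 bases was read from GENCODE M21 transcripts (GRCm38), 5′ to 3′ on the coding strand. Capitals mark the 18 bases that encode the filter.
Kcna1: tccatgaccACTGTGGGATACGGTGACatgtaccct
Kcna2: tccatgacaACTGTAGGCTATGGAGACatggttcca
Kcna4: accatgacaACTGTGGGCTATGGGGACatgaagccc
Kcna6: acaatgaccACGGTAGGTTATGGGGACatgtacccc
Kcnd2: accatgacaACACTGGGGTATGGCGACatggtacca
Kcnd3: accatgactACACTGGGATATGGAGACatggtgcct

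In the 4 Kv1 genes the window lies in a single coding exon, which holds the whole reading frame. It was found at chr6:126642216-126642251 on the minus strand for Kcna1, chr3:107105215-107105250 on the plus strand for Kcna2, chr2:107296486-107296521 on the plus strand for Kcna4 and chr6:126738635-126738670 on the minus strand for Kcna6. In both Kv4 genes the filter is split by an intron after 17 bases of the window. For Kcnd2 the first part lies in exon 1 at chr6:21217397-21217413 and the rest in exon 2 at chr6:21714135-21714153, with an intron of 496721 bases between them. For Kcnd3 the parts lie in exon 2 at chr3:105459905-105459921 and exon 3 at chr3:105658611-105658629, with 198689 bases between them. Kcnd2 and Kcnd3 were the most similar pair, with 31 of the 36 bases identical, and the other pairs shared between 25 and 29. Reads that fit more than a single gene cannot be assigned with certainty, so shared sequence was counted. Of all words of 31 bases in the transcripts of each member, between 0% (Kcnd2) and 2.39% (Kcna6) also occurred in a transcript of another gene on the same strand. On the opposite strand the share was at most 1.55% for the other members but 39.2% for Kcna6, where the antisense gene Gm26673 (chromosome 6, 126718684 to 126741601, plus strand) overlaps it. The labels and the study's methods name different library kits, of which only the latter is described as stranded, and how strand was set in the quantification is not given in the sources used here. Gm26673 itself had 0.482% of the mean normalized count of Kcna6, and the value of Kcna6 is reported as uncertain for this reason.

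The deposited values are counts normalized by the authors and totalled 18702634 to 19231119 per mouse. Between 59.5% and 75.6% of the low values came to within 0.1 of a whole read, so read counts were not recovered. The step between low values placed the reads assigned to the genes of the deposited table at approximately 15500000 to 22300000 per library. Markers of the dissected tissue were present in every mouse, with summed levels of 2055 to 5729 normalized counts for the 4 dentate granule neuron markers and 4962 to 6912.5 for the 4 CA1 pyramidal neuron markers. Anesthesia replicate 2 had the highest and Anesthesia replicate 3 the lowest dentate sum. The 8 choroid plexus markers, from a tissue beside the hippocampus, ranged from 435 to 56464 in Anesthesia mice and from 558 to 65788 in Control mice. They were abundant (26243 or more) in 1 Anesthesia mouse (replicate 1) and 3 Control mice (replicates 2, 3 and 4), and at 3229 or less in the other 4 mice. In bulk tissue, fewer cells of a type and less RNA per cell cannot be told apart.

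None of the 10 genes differed between the groups past the threshold. In the limma comparison of 4 Anesthesia and 4 Control mice, 0 of the 10 had an adjusted p under 0.05, as did 0 of all 18865 genes tested (0%), and the smallest adjusted p among the members was 0.62. With limma voom the count was also 0. The study's own DESeq2 comparison called some genes at an adjusted p under 0.05, so the count of 0 over all genes holds for the fits used here. At an unadjusted p under 0.05 there was 1 member, Kcna1, against 8.02% of all genes tested (4.75% higher and 3.27% lower in the Anesthesia group). For none of the 10 were the groups free of overlap, which was the case for 5.04% of all genes (2.81% higher and 2.23% lower). The mean was higher in the Anesthesia group for 6 members (Kcna1, Kcna2, Kcna4, Kcna6, Kcnab2 and Kcnip3) and lower for 4 (Kcnab1, Kcnd2, Kcnd3 and Dpp6). Their median log2 fold change was 0.03, beside a median of -0.0036 and 49.2% higher over all genes tested.

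**Figure D1:**
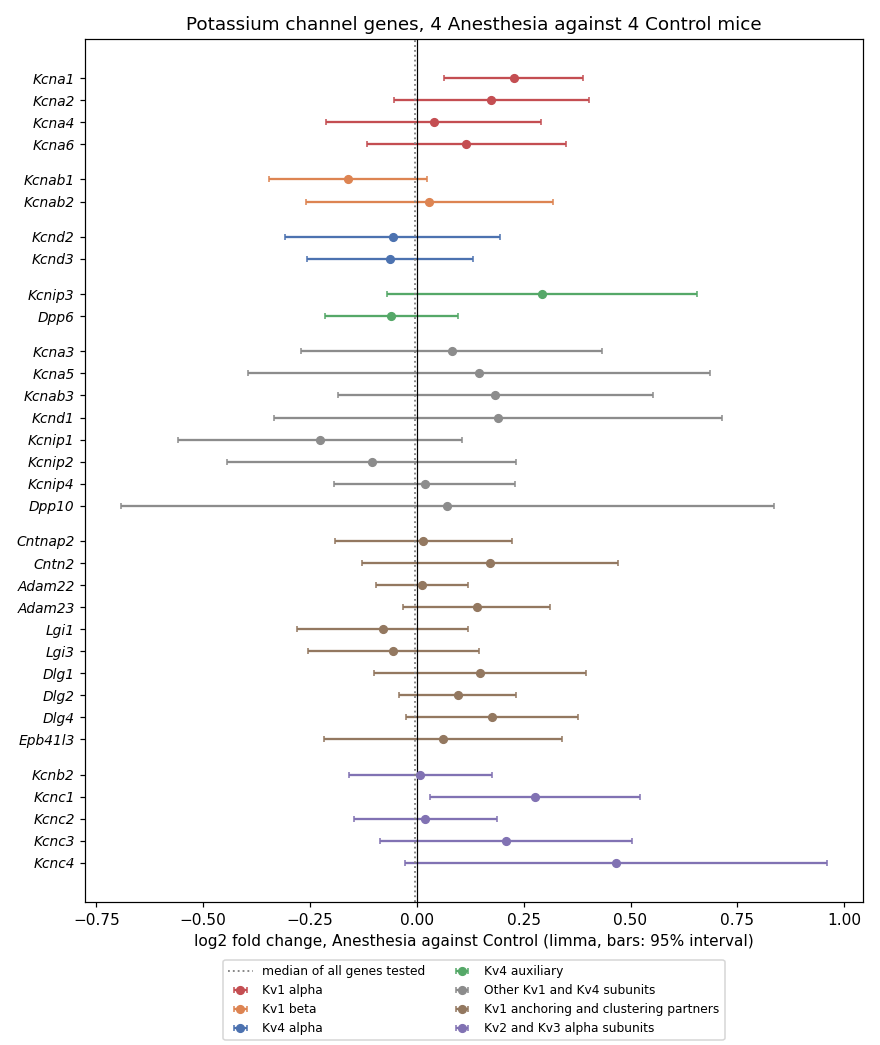
Log2 fold change of each gene, Anesthesia against Control (x axis), for the 10 members and 23 related genes (rows, coloured by group); points are limma estimates, bars their 95% intervals, and the dotted line the median of all genes tested. Kcna1 is the only member whose interval lies apart from 0, from 0.06 to 0.39, and Kcnc1 is the only related gene shown for which that holds.

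Kcna1 (ENSMUSG00000047976, chromosome 6, 126640397 to 126646384, minus strand) encodes a subunit of the low-threshold Kv1 current of axons, and its loss causes epilepsy in mice and ataxia in humans. It had 2025, 2414, 2262 and 2436 normalized counts in Anesthesia replicates 1 to 4 and 1967, 1826, 2105 and 1899.7 in Control replicates 1 to 4. Replicates 2, 3 and 4 of the Anesthesia group lay above every Control mouse, and replicate 1 lay below Control replicate 3. The group means were 2284 ± 189 and 1949.5 ± 119 (SD, n = 4 each), 17.2% higher in the Anesthesia group. The log2 fold change was 0.23 (standard error, SE, 0.07, 95% interval 0.06 to 0.39, limma adjusted p = 0.62), and the gene ranked 325 by unadjusted p among the 18865 tested. A two-sided exact permutation test on its normalized counts gave p = 0.0571, where 0.0286 is the smallest p that 4 mice against 4 allow. The 3 Anesthesia mice above the Control range were the 3 with few choroid plexus markers. Among the 4 mice with few of these markers, Kcna1 was at 2262 to 2436 in the Anesthesia mice and 1967 in Control replicate 1. Among the other 4, it was at 2025 in Anesthesia replicate 1 and 1826 to 2105 in the Control group. With the choroid plexus markers as a covariate the log2 fold change was 0.19 (limma adjusted p = 0.976). In that fit Kcna1 was still the only member with an unadjusted p under 0.05, against 4.5% of all genes tested.

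Kcna2 (ENSMUSG00000040724, chromosome 3, 107101146 to 107115005), the usual partner of Kcna1 in axonal channels, had 4879, 4872, 6747 and 5344 normalized counts in Anesthesia replicates 1 to 4. The Control mice had 4532, 5099.7, 4447 and 5145. Anesthesia replicate 3 was far above the rest and replicate 4 was next, while replicates 1 and 2 lay inside the Control range. The means were 5460 ± 886 and 4806 ± 368 (SD, n = 4 each), with a log2 fold change of 0.17 (SE 0.10, 95% interval -0.05 to 0.40, limma adjusted p = 0.673). Without Anesthesia replicate 3 it was 0.07, and 0.08 once GC content and transcript length had been corrected for. Kcna2 has the longest transcript of the 10, at 11582 bases.

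Kcna6 (ENSMUSG00000038077, chromosome 6, 126708329 to 126740674, minus strand) lies 61.9 kb from Kcna1 on the same strand and encodes a slowly inactivating Kv1 subunit. Its values were 1225, 1159, 1621.5 and 1358 in Anesthesia replicates 1 to 4 and 1176, 1195, 1165 and 1387 in the Control mice. As for Kcna2, Anesthesia replicate 3 stood above all other mice, and the remaining mice overlapped. Its log2 fold change was 0.12 (SE 0.10, 95% interval -0.12 to 0.35, limma adjusted p = 0.774), and 0.02 without Anesthesia replicate 3. It was 0.18 without Anesthesia replicate 2, 0.17 without Control replicate 4 and 0.04 after correction for GC content and length.

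Kcna4 (ENSMUSG00000042604, chromosome 2, 107290639 to 107298502) is the Kv1 subunit with fast inactivation of its own. It had 1715, 1854, 1412 and 1617 normalized counts in the Anesthesia group against 1944, 1649, 1385 and 1466 in the Control group. Both extremes of the 8 mice were Control mice, and the groups overlapped throughout. On the log2 scale the difference was 0.04 (SE 0.11, 95% interval -0.21 to 0.29, limma adjusted p = 0.937), and the interval runs from 0.863-fold to 1.22-fold.

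**Figure D2:**
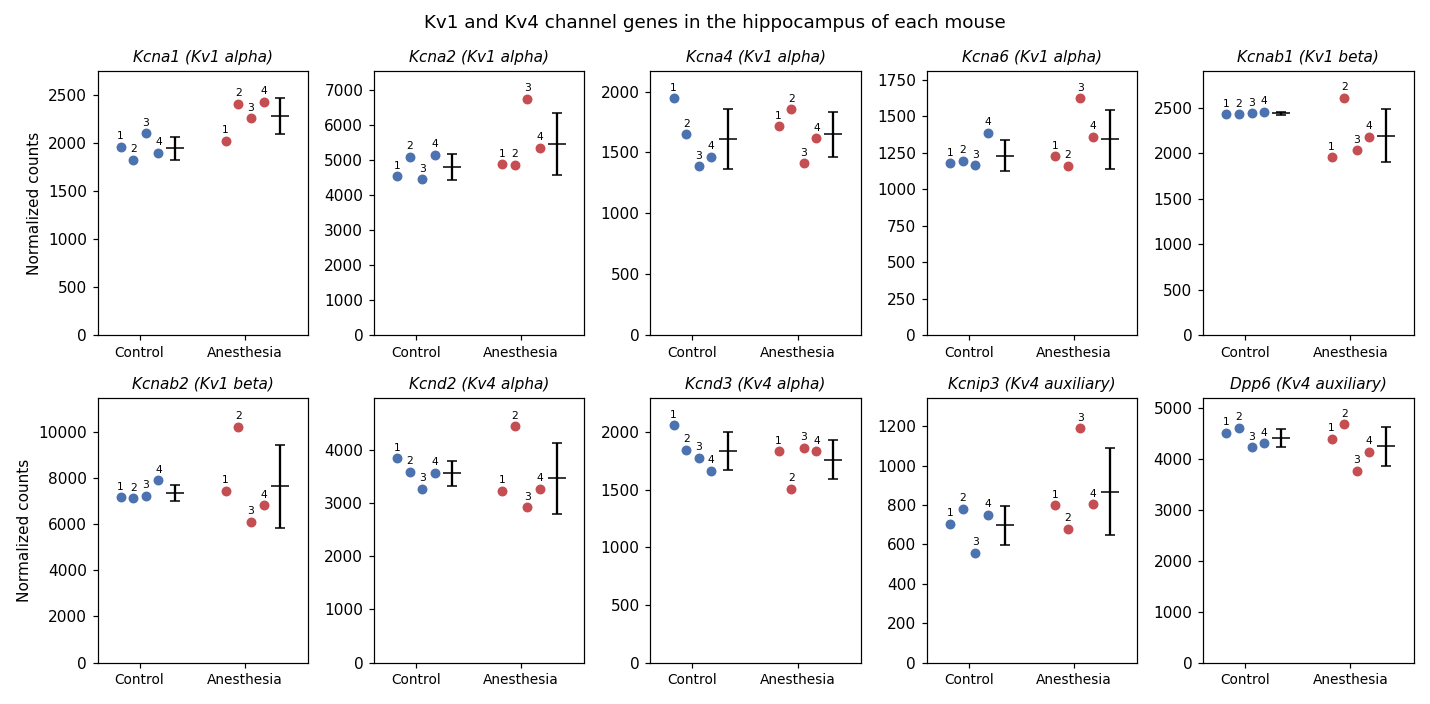
Normalized counts (y axis, from 0) of each of the 10 genes in the 4 Control (blue) and 4 Anesthesia (red) mice, with the replicate number above each point; the black bar beside each group is the mean with its SD. The groups overlap in every panel, and Anesthesia replicates 2 and 3 are most often the points farthest from the Control mice.

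The beta subunits belong to the aldo-keto reductase family. Kcnab1 encodes a beta subunit that confers fast inactivation on Kv1 channels, and Kcnab2 encodes the most widely expressed one, which helps Kv1 channels reach the axon. Kcnab1 (ENSMUSG00000027827, chromosome 3, 65109384 to 65378223) had 2430.0, 2429, 2439.9 and 2461 normalized counts in Control replicates 1 to 4, and 1955, 2609, 2034 and 2185 in the Anesthesia mice. Replicates 1, 3 and 4 of the Anesthesia group lay below every Control mouse, and replicate 2 lay above every one. The means were 2196 ± 292 and 2440.0 ± 14.7 (SD, n = 4 each), 10.01% lower in the Anesthesia group. The fitted log2 fold change was -0.16 (SE 0.08, 95% interval -0.35 to 0.02, limma adjusted p = 0.652), and -0.25 without Anesthesia replicate 2 (adjusted p = 0.50). The Control mice were unusually close together: their coefficient of variation was 0.60%, smaller than for all but 7 of the 4035 genes averaging 1000 or more, whose median was 5.5%. This spread was singled out after the values were seen, and the Control range set against the Anesthesia mice above is narrow for this reason.

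Kcnab2 (ENSMUSG00000028931, chromosome 4, 152390742 to 152477871, minus strand) had 7448, 10221, 6104 and 6828 normalized counts in Anesthesia replicates 1 to 4 and 7177, 7131, 7232 and 7908 in the Control mice. Anesthesia replicate 2 was the highest of the 8 and replicates 3 and 4 the lowest. On the log2 scale the difference was 0.03 (SE 0.13, 95% interval -0.26 to 0.32, limma adjusted p = 0.958). Its sign rested on Anesthesia replicate 2, without which it was -0.12.

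Kcnd2 (ENSMUSG00000060882, chromosome 6, 21215503 to 21729805) encodes the main A-type channel subunit of pyramidal neuron dendrites. It had 3227.5, 4438, 2920 and 3267 normalized counts in Anesthesia replicates 1 to 4 and 3836, 3590.5, 3262 and 3561 in the Control mice. Replicate 2 of the Anesthesia group was again the highest of the 8 mice and replicate 3 the lowest. The means were 3463 ± 668 and 3562 ± 235 (SD, n = 4 each), with a difference of -0.06 on the log2 scale (SE 0.11, 95% interval -0.31 to 0.20, limma adjusted p = 0.901). Leaving out Anesthesia replicate 2 gave -0.18, and leaving out replicate 3 gave 0.02.

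Kcnd3 (ENSMUSG00000040896, chromosome 3, 105452330 to 105674002) encodes the Kv4 subunit found mainly in interneurons and granule cells. It had 1831, 1508, 1862 and 1833 normalized counts in the Anesthesia mice and 2058, 1847, 1776 and 1660.5 in the Control mice. Anesthesia replicate 2, the highest for Kcnd2, was the lowest of the 8 for Kcnd3, and the other 3 Anesthesia mice lay close together, between 1831 and 1862. The log2 fold change was -0.06 (SE 0.09, 95% interval -0.26 to 0.13, limma adjusted p = 0.847), and 0.01 without Anesthesia replicate 2.

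Among the auxiliary subunits, Kcnip3 encodes a calcium-binding KChIP that is also known as calsenilin and as the transcriptional repressor DREAM. Kcnip3 (ENSMUSG00000079056, chromosome 2, 127456498 to 127522094, minus strand) had 799, 678, 1190.3 and 804 normalized counts in Anesthesia replicates 1 to 4, and 704, 782, 557 and 751 in the Control mice. Replicates 1, 3 and 4 of the Anesthesia group lay above every Control mouse, and replicate 2 lay inside the Control range. The means were 868.1 ± 223 and 698 ± 99.4 (SD, n = 4 each). The log2 fold change of 0.29 was the largest of the 10, with the widest interval (SE 0.16, 95% interval -0.07 to 0.66, limma adjusted p = 0.669), and it was 0.13 without Anesthesia replicate 3 and 0.19 without Control replicate 3.

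Dpp6 (ENSMUSG00000061576, chromosome 5, 26817203 to 27727505) encodes a single-pass membrane protein that speeds the gating of Kv4 channels. It had 4392, 4671, 3758 and 4137 normalized counts in the Anesthesia mice and 4506, 4608, 4218 and 4297 in the Control mice. Anesthesia replicates 2 and 3 held the highest and the lowest value. The log2 fold change was -0.06 (SE 0.07, 95% interval -0.21 to 0.10, limma adjusted p = 0.82), the narrowest interval of the 10 and one that runs from 0.862-fold to 1.07-fold. Single mice moved the estimate: it was -0.0033 without Anesthesia replicate 3, -0.11 without Anesthesia replicate 2 and -0.04 without Control replicate 2.

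Levels of different genes were compared as normalized counts per kilobase of the longest coding transcript. Kcnab2 was the most abundant, with 1877 ± 93.3 per kb in the Control group (SD, n = 4), followed by Dpp6 at 934 ± 38.3, Kcnab1 at 752 ± 4.51 and Kcnd2 at 691 ± 45.6. The Kv1 alpha subunits came next, with Kcna1 at 484 ± 29.5, Kcna2 at 415 ± 31.7 and Kcna4 at 336 ± 51.8 per kb. Kcnd3 (256 ± 23.3), Kcnip3 (256 ± 36.4) and Kcna6 (211 ± 17.96) were the lowest. The Control values of neighbours in this order overlapped for Kcna2 and Kcna4, for Kcnd3 and Kcnip3, and for Kcnip3 and Kcna6, and were apart for the other 6 neighbouring pairs. The order depends on the length used: per kilobase of all annotated exons, Kcnab2 remained first, Kcnd2 was the second and Kcna1 the third, while Dpp6 moved to the fifth place and Kcnab1 to the seventh.

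**Figure D3:**
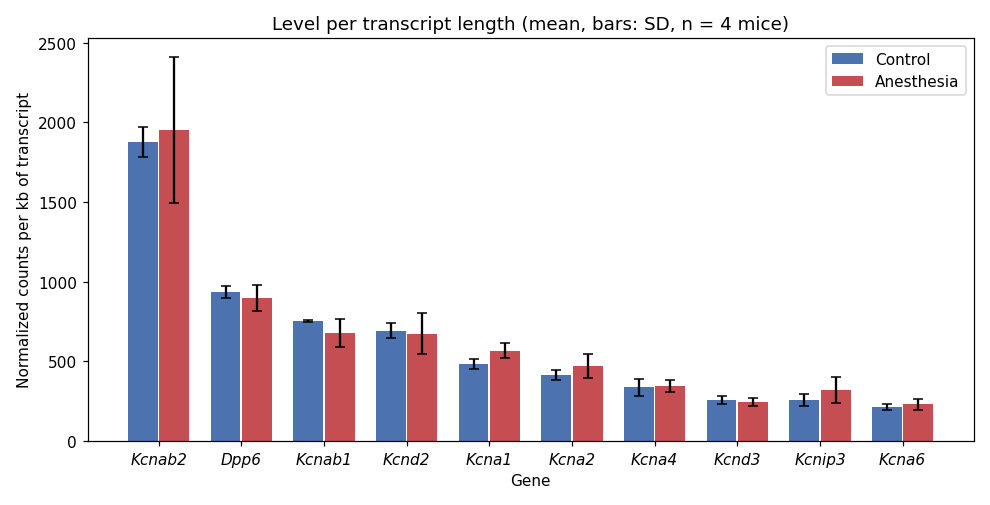
Mean normalized counts per kilobase of the longest coding transcript (y axis, from 0) for each gene (x axis) in the Control (blue) and Anesthesia (red) groups; error bars are the SD of 4 mice. Kcnab2 is at 1877 per kb in the Control group and Kcna6, the lowest, at 211, and the error bars of the groups overlap for 9 of the genes.

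The make-up of each channel family, as a share of normalized counts per kilobase, was close in the groups. Kcna1 made up 35.2% ± 2.31 of the 4 Kv1 alpha transcripts in Anesthesia mice and 33.5% ± 2.70 in Control mice (SD, n = 4 each). The shares were 29.2% ± 3.33 and 28.7% ± 2.12 for Kcna2, 21.5% ± 3.29 and 23.2% ± 3.07 for Kcna4, and 14.2% ± 1.56 and 14.6% ± 1.18 for Kcna6. Kcnd2 made up 72.8% ± 5.19 of Kcnd2 and Kcnd3 together in Anesthesia mice and 73.0% ± 1.36 in Control mice. It stood at 80.4% in Anesthesia replicate 2 and between 68.6% and 74.9% in the other 7 mice. Kcnab2 made up 73.9% ± 2.61 of Kcnab1 and Kcnab2 together in Anesthesia mice and 71.4% ± 0.866 in Control mice. It stood at 75.9% and 76.4% in Anesthesia replicates 1 and 2 and at 70.8% to 72.7% in the other 6 mice. All 6 of these shares overlapped between the groups.

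The Anesthesia mice were spread more widely than the Control mice for most of the 10 genes. The SD of log2 values was larger in the Anesthesia than in the Control group for 9 of the 10, all but Kcna4, and for 59.4% of all genes tested. Anesthesia replicates 2 and 3 held the highest value of the 8 mice for 7 of the 10 and the lowest for 5, where over all genes tested they held 36.4% of the highest and 36.0% of the lowest values. Kcnab2, Kcnd2 and Dpp6 were highest in replicate 2 and lowest in replicate 3. Kcna2, Kcna6 and Kcnip3 were highest in replicate 3, where Kcna2 lay 0.41, Kcna6 0.34 and Kcnip3 0.63 above the mean of 8 mice on the log2 scale. In replicate 2 the last of these lay at -0.18. The dentate granule neuron markers stood 0.77 above the mean of 8 mice in replicate 2 and at -0.58 in replicate 3. In Control replicates 1 and 4 these markers were at 0.51 and -0.55. There Kcnd2 was at 0.14 and 0.03, Kcnab2 at -0.05 and 0.09, Kcna4 at 0.26 and -0.14, and Kcna6 at -0.12 and 0.12. In the same Control mice Dpp6 was at 0.06 and -0.0057, Kcna2 at -0.17 and 0.01, and Kcnip3 at -0.12 and -0.03. Anesthesia replicates 2 and 3 had Kcna4 at 0.20 and -0.20, and Kcna6 at -0.14 and 0.34. The part of the dentate and CA1 markers in these values was not tested beyond a fit with the dentate markers as a covariate, chosen after the data were seen, in which 0 of the 10 genes had an adjusted p under 0.05 and 4 (Kcna1, Kcna2, Kcnab1 and Kcnip3) had an unadjusted p under 0.05, against 10.8% of all genes tested in that fit. Replicate 3 held the highest value of the 8 mice for 20.3% of all genes tested and the lowest for 21.0%, more than any other library.

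**Figure D4:**
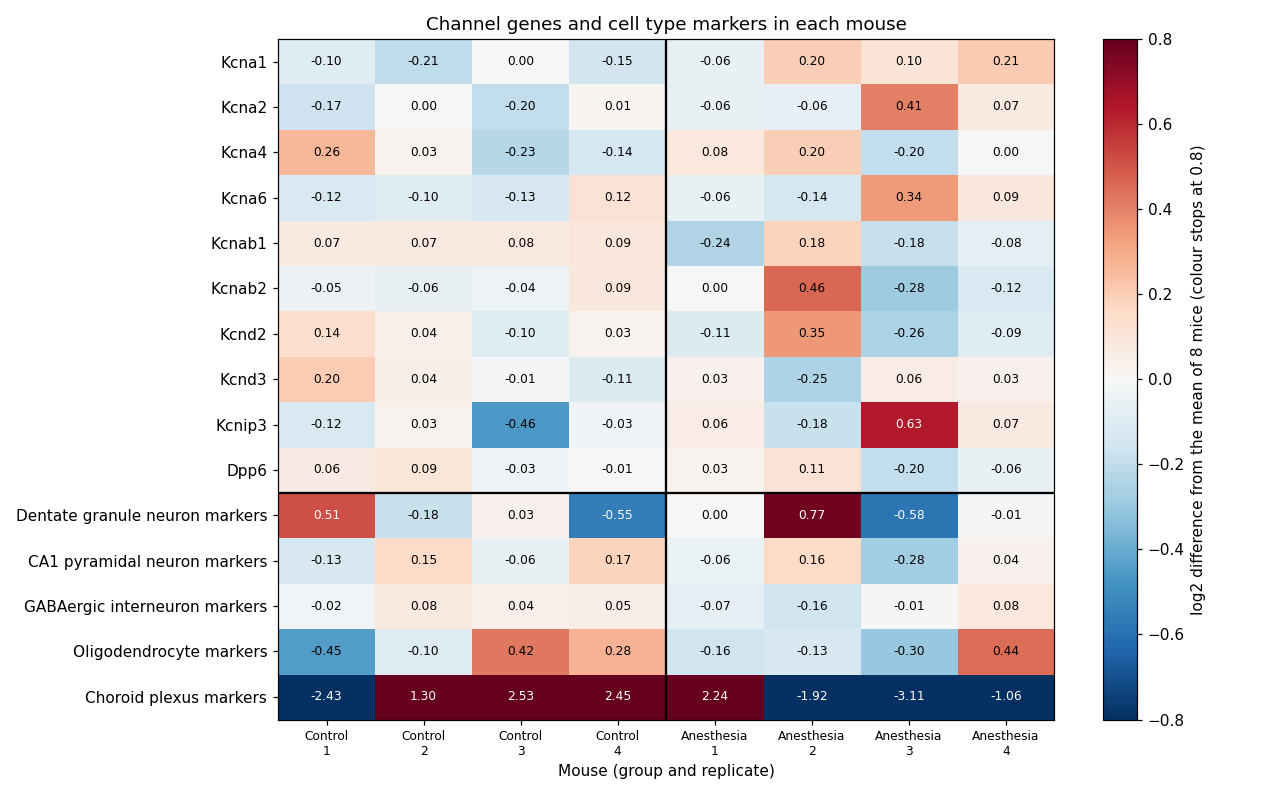
Log2 difference from the mean of the 8 mice (colour, and the number in each cell) for each of the 10 genes and the mean of each marker list (rows) in every mouse (columns); colours stop at 0.8, so the choroid plexus row, from -3.11 to 2.53, is beyond the scale. Kcnab2 and Kcnd2 run from 0.46 and 0.35 in Anesthesia replicate 2 to -0.28 and -0.26 in Anesthesia replicate 3, and Kcna2, Kcna6 and Kcnip3 are highest in replicate 3.

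Promoters are shown for 3 members at opposite ends of the order in Anesthesia replicate 3, Kcna6 and Kcnip3 (highest there) and Kcnd2 (lowest there). They were chosen after their values were seen, from those whose window lies wholly outside the GENCODE gene. Each is the 250 bases before the RefSeq start nearest to the 5′ end of the gene on GRCm38.p6, written 5′ to 3′ on the strand of the gene. Capitals mark matches, on either strand, to TGACG (the core of a cAMP response element) and GGGCGG (a GC box).
Kcna6, chr6:126740675-126740924, minus strand: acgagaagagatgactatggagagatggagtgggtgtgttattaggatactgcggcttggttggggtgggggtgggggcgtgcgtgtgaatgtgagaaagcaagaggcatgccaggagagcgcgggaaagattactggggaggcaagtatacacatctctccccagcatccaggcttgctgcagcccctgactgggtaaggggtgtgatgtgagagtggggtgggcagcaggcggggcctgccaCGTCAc
Kcnip3, chr2:127522095-127522344, minus strand: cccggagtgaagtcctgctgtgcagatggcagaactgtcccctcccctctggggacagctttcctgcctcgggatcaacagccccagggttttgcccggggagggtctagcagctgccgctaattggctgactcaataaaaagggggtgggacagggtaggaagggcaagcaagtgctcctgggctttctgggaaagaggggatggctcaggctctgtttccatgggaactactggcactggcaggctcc
Kcnd2, chr6:21215096-21215345, plus strand: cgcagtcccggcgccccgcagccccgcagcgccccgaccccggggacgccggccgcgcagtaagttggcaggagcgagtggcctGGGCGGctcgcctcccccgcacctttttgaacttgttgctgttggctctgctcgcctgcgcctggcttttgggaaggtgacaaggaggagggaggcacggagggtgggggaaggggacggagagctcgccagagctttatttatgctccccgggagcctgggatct

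Of the 10 members, 9 matched the RefSeq promoter table, and Kcna1 did not. TGACG was present in 2 of the 9 (Kcna6 and Kcnab2) and in 17.8% of all 32851 promoter windows of the same length. GGGCGG was present in 3 of the 9 (Kcna4, Kcnab2 and Kcnd2) and in 32.7% of all windows, and a TATA box searched as TATAAA was present in 1 (Dpp6) and in 12.4%. The members' windows had a median of 14 CpG dinucleotides and 61.2% GC, against 6 and 52.4% over all windows. For this and the motif shares each member gave only the window nearest its 5′ end, whereas all windows include alternative starts of genes. Among the printed windows Kcnd2 was the richest, with 22 CpG and 68.8% GC, and Kcnip3 had 4 and 60.0%.

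Other Kv1 and Kv4 subunits, Kv1 anchoring partners, and Kv2 and Kv3 alpha subunits were read from the same fit as 3 lists of 25 genes in all. Of these, 23 were tested and Kcna7 and Kcna10 were not in the table. Past the adjusted threshold of 0.05 there were 0 of the 23 in limma and 0 in limma voom, and 1 (Kcnc1) had an unadjusted p under 0.05, higher in the Anesthesia group, against 4.75% of all genes tested in that direction. Of the 8 other Kv1 and Kv4 subunits, 6 were higher and 2 lower, with a median log2 fold change of 0.08. The largest difference there was for Kcnip1, a KChIP of interneurons, with a mean of 273 ± 44.1 after ketamine and 320.2 ± 57.0 after saline (SD, n = 4 each), or -0.23 on the log2 scale (SE 0.15, limma adjusted p = 0.699). For Kcnip1 this became -0.11 without Control replicate 2, -0.12 without Anesthesia replicate 3 and -0.09 with the choroid plexus covariate. Dpp10, the close relative of Dpp6, was singled out after its values were seen: it ranged from 717 in Anesthesia replicate 2 to 3071 in Anesthesia replicate 3, a 4.29-fold span, and from 1335 to 1823 in the Control mice. Its log2 fold change was 0.07 (SE 0.35, limma adjusted p = 0.962).

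Of the 10 Kv1 anchoring and clustering partners, which include the juxtaparanodal adhesion molecules Cntnap2 and Cntn2, the ligand Lgi1 with its receptors Adam22 and Adam23, and the Dlg scaffolds, 8 were higher and 2 lower, with a median of 0.08. The largest difference was for Dlg4, which encodes the postsynaptic scaffold PSD-95, with 3537 ± 376 against 3131 ± 312 normalized counts (SD, n = 4 each), or 0.18 on the log2 scale (SE 0.09, limma adjusted p = 0.652). Cntnap2, at 0.02 (SE 0.09), and Adam22, at 0.01 (SE 0.05), were among the smallest.

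For all 5 listed genes of Kv2 and Kv3 alpha subunits the Anesthesia mean was the higher, at a median log2 fold change of 0.21 and a range of 0.008 to 0.47. Kcnc1, of the fast-spiking interneuron channel, had 1469 ± 220.05 against 1208 ± 133 (SD, n = 4 each), or 0.28 on the log2 scale (SE 0.11, limma adjusted p = 0.62), 0.18 without Anesthesia replicate 3 and 0.10 after correction for GC content and transcript length. Kcnc4 had the largest difference of this list, 0.47 (SE 0.22, limma adjusted p = 0.636), with 628 normalized counts in Anesthesia replicate 3, 298 to 455 in the other Anesthesia mice and 220.4 to 363 in the Control group. For Kcnc4 the estimate was 0.28 without Anesthesia replicate 3 and 0.31 without Control replicate 3. Anesthesia replicate 3 was the highest of the 8 mice for 4 of these 5 genes, for 12 of the 23 and for 3 of the 10 members. In that library, genes with transcripts under 2000 bases and a mean of at least 100 had a median of -0.11 on the log2 scale relative to the mean of 8 mice, and in the other 7 libraries between -0.02 and 0.04. For transcripts of 8000 bases or more the median was 0.049, 0.034 and 0.030 in Anesthesia replicates 2, 3 and 4. It was -0.013 in Anesthesia replicate 1 and between -0.038 and -0.015 in the Control mice.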

How the data were processed

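Hippocampal RNA of 8 mice was sequenced. The authors ran Salmon 1.1.0 (quasi-mapping to GRCm38, corrected for GC bias), imported gene-level values with tximport and divided the counts by size factors with DESeq2 1.30.1, so the deposited values are a normalized signal per gene and mouse. The annotation release is not given in the sources used here. Each column was assigned through its letter and number, leaving 0 columns unassigned. Symbols and positions came from GENCODE M21 (20784 of 20802 identifiers matched), and promoters from RefSeq.

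The design named a count model for raw counts. Because the values are not counts, limma 3.58.1 in R 4.3.3 was fitted with a mean-variance trend to log2(value + 1) for the 18865 genes averaging 10 or more (1937 were left out), with no covariate and Benjamini-Hochberg adjustment over all of them. Fold changes on this scale understate the change of low genes. All members were named. Of the related genes, those with an unadjusted p under 0.05, those with groups that did not overlap and the largest difference in each list were named. An item of the related lists is not reported here. The rule for the members is a list of symbols and uses no values, but that list, the related lists and the tests were chosen with earlier results of these data known. Levels per kilobase used the longest coding transcript. Same-numbered mice were not treated as pairs. The alternatives were upper quartile and library total scaling, no filter, a minimum of 10 in each library, 0.1 as pseudocount, limma voom, the replicate block, a loess correction for GC content and transcript length with and without that block, the choroid plexus covariate, a threshold of 0.10 and omission of each mouse in turn. The dentate granule covariate and the fit without Anesthesia replicates 2 and 3 were added after seeing the data.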

Additional observations from a re-analysis of the deposited data

Results flagged for a closer look

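For the 10 members and the 4 related genes named by rule, the 4 values of each gene in each group (28 sets) were searched for 1 value well separated from the remaining 3. Such a value was found in 3 sets, where about 1.4 would be by chance. Control replicate 4 had 1387 normalized counts of Kcna6 against 1165 to 1195 in the other Control mice, and 7908 of Kcnab2 against 7131 to 7232. Anesthesia replicate 2 had 1508 of Kcnd3 against 1831 to 1862 in the other Anesthesia mice. All mice were kept.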

How the results depend on the processing

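The number of members past the threshold and that of related genes was 0 under every alternative run. Over all genes it was 0 except without Control replicate 1, so that leaving out single mice gave 0 to 2. The sign of 4 members changed under some alternatives. Kcna4 (0.04) was -0.018 with the choroid plexus covariate and ranged from -0.029 to 0.13 with each mouse left out. Kcnab2 (0.03) was -0.054 after correction for GC content and length, with and without the replicate block, and -0.045 without Anesthesia replicates 2 and 3, and ranged from -0.12 to 0.13 with each mouse left out. Kcnd3 (-0.06) was 0.0016 without Anesthesia replicates 2 and 3 and ranged from -0.11 to 0.0095. Kcnd2 (-0.06) ranged from -0.18 to 0.019. Kcna1 stayed between 0.19 and 0.28 over all alternatives. The causes were not tested. The members with an unadjusted p under 0.05 numbered 1 in the comparison reported and 4 without Anesthesia replicate 2 (Kcna1, Kcnab1, Kcnd2 and Kcnip3), where 8.02% and 9.32% of all genes tested had one. Without Anesthesia replicates 2 and 3 Kcnab1 was the only such member, against 5.07% of all genes tested in that fit, and Kcna1 was not one. Same-numbered mice did not deviate together (correlations -0.242, -0.109, -0.182 and 0.0194), and with the replicate block 1084 genes had an unadjusted p under 0.05 against 1513 without it, and Kcna1 was again the only such member. The share of genes with an unadjusted p under 0.05 that were higher in the Anesthesia group was 59.3%, and 51.2% with library total scaling. At 4 mice a group, the intervals leave differences of up to 1.31-fold for Kcna1 and 1.58-fold for Kcnip3 possible.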
